A study of Mus musculus with 6 samples.

Results

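The mitochondrial ribosomal protein genes were followed in mouse liver after hepatic ischemia and reperfusion, an injury made by stopping the blood supply of the liver for a time and letting it return. The genes were chosen by name, as the rows of the deposited expression table whose symbol begins with Mrpl or Mrps followed by a digit. This gave 82 members among 29543 genes, 51 with an Mrpl symbol and 31 with an Mrps symbol. Expression was measured by RNA sequencing in 3 libraries of livers with IR injury and in 3 of livers after a laparotomy without ischemia (Sham). No genotype, allele or agent is named for either group, and the sources used here do not give strain, sex, age or the times of ischemia and reperfusion. The labels do not say whether libraries of a group came from separate animals, and the p-values therefore reflect only how these libraries vary, which may be technical variation.

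The mitochondrial ribosome is made of RNA encoded in mitochondrial DNA and of proteins that are encoded in the nucleus, translated in the cytosol and imported. It translates only the few mRNAs of mitochondrial DNA, all of which encode hydrophobic subunits of the respiratory chain and of ATP synthase. Its small subunit reads the mRNA, and its large subunit joins amino acids and passes the new chain through an exit tunnel to the inner membrane. Some of its proteins descend from the bacterial ribosome and others are found only in mitochondria. The hepatocyte, the main cell of the liver, is rich in mitochondria and draws its energy largely from respiration.

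Of the 82 members, 76 encode subunits of the mitochondrial ribosome. These are 50 proteins of the large subunit (30 conserved with bacteria and 20 specific to mitochondria) and 26 of the small subunit (16 conserved and 10 specific). Mrps18a and Mrps30 were counted with the large subunit, where their proteins sit despite their symbols. Another 5 members are rows of pseudogenes, Mrpl23-ps1, Mrpl27-ps, Mrpl48-ps, Mrps36-ps1 and Mrps36-ps2. Mrps36 encodes Kgd4, a component of the 2-oxoglutarate dehydrogenase complex of the citric acid cycle and not of the ribosome. The members lie on 18 chromosomes, with the most, 11, on chromosome 11. Mrpl53 was not analysed here.

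The authors deposited FPKM, fragments scaled to gene length and to the size of the library, so that levels can be compared between genes per length. The totals rebuilt from these values were 53622229 to 71752584 reads in the Sham and 54042831 to 68922517 in the IR libraries. The members took 0.168% to 0.190% of the reads in Sham and 0.143% to 0.149% in IR, and a tested member had between 36 (Mrpl27-ps) and 12565 reads in a library. The summed FPKM of 8 hepatocyte markers was 61387 to 64519 in Sham and 53716 to 56272 in IR, so that the labelled tissue was recognised in every library. Singly, 5 of the 8 fell, 2 rose and 1 did not pass the test. Neutrophil markers (7 genes, of which 6 of 6 tested rose) summed to 8.68 to 10.8 FPKM in Sham and 139 to 184 in IR. Summed markers of Kupffer cells (6 genes, 189 to 193 FPKM against 81.3 to 106) and of stellate cells (6 genes, 58.2 to 63.3 against 20.01 to 28.92) were lower in every IR library. Singly, 5 of 6 and 4 of 5 tested fell, and none rose past the threshold. Summed markers of sinusoidal endothelium (6 genes) spanned 42.6 to 48.3 FPKM in Sham and 31.3 to 67.4 in IR, a sum that hides opposite changes. Of these 6, 4 fell, 1 rose by 1.54 on the log2 scale and 1 did not pass, with a median log2 fold change of -1.11. Those of cholangiocytes (5 genes) spanned 23.8 to 27.3 and 30.5 to 41.2, with 3 of 3 tested higher. Those of lymphocytes (6 genes) spanned 2.11 to 2.58 and 0.902 to 1.21, all under the filter of the test. No marker of these 7 lists had a mean of 0. The part of these shifts in cell type markers in the results that follow was not tested, and in tissue RNA fewer cells of a type and less RNA per cell cannot be told apart.

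Upstream sequences are shown for 5 members, Mrps2, Mrpl22, Mrpl34 and Mrps22, which fell in IR, and Mrpl52, which did not pass the test. They were chosen among stretches with at most 3 bases in an annotated exon. Other stretches within this limit, such as those of Mrps14 and Mrps9, hold no match to the sites named below. The 5 therefore do not show how common such sites are among the members. Each is the 250 bases before a RefSeq transcription start in GRCm38.p6, written 5′ to 3′ on the gene's strand. Capitals mark matches on either strand to the core of the ETS factor site (CCGGAAG), the core of the site of nuclear respiratory factor 1, NRF1 (GCATGCGC), and the site of the zinc-finger factor ZNF143 (ACTACA and TCC with 2 bases between).
Mrps2 (chr2:28467816-28468065, plus strand): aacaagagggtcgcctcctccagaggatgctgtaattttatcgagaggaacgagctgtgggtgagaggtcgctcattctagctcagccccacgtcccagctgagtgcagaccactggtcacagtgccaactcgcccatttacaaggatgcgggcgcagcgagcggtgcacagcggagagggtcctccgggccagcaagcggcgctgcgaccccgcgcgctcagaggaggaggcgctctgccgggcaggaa
Mrpl22 (chr11:58171414-58171663, plus strand): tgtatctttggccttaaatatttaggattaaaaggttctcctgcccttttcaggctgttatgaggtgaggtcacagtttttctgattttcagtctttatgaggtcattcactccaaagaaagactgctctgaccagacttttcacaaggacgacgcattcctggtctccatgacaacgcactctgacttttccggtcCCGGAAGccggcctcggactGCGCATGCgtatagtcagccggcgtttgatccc
Mrpl34 (chr8:71464676-71464925, plus strand): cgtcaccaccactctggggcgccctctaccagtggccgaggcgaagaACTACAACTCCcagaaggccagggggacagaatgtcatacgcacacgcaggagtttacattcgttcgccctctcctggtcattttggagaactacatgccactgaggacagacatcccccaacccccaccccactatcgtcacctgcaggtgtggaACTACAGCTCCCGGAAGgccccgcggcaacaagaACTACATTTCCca
Mrps22 (chr9:98601680-98601929, minus strand): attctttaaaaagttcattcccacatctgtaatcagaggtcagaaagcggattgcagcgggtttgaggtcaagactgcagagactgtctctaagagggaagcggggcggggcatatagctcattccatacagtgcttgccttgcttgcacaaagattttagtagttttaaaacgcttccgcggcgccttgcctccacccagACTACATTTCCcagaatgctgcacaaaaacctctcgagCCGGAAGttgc
Mrpl52 (chr14:54426659-54426908, plus strand): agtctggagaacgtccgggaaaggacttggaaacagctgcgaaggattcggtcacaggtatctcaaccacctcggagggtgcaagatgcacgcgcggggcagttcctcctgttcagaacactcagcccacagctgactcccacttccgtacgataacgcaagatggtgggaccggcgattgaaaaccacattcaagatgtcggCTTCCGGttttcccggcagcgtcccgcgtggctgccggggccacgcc

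Most members were lower in IR than in Sham, and a few stood apart from the rest in the other direction. Of 77 members with a mean of at least 1 FPKM, 62 fell, 4 rose and 11 did not pass the test (limma on log2(FPKM + 1), Benjamini-Hochberg adjusted p under 0.05 over 10316 genes). Across all genes tested, 78.1% passed the threshold, 53.8% lower and 24.3% higher, so that a fall was common in these livers. Among the tested members 80.5% fell, and the members' median log2 fold change was -0.39 with quartiles of -0.56 and -0.25. The median of all genes was -0.23, and 61 of the 77 members lay below it. In 61 members all IR values lay below all Sham values, and in 4 all lay above; among all genes the groups did not overlap in 80.6%, 55.2% lower and 25.4% higher. In the members that fell the mean FPKM of IR differed from that of Sham by -10.1% to -56.4%.

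The plot of fold changes by gene shows this shared fall, the members near 0 and the 4 that rose.

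**Figure D1:**
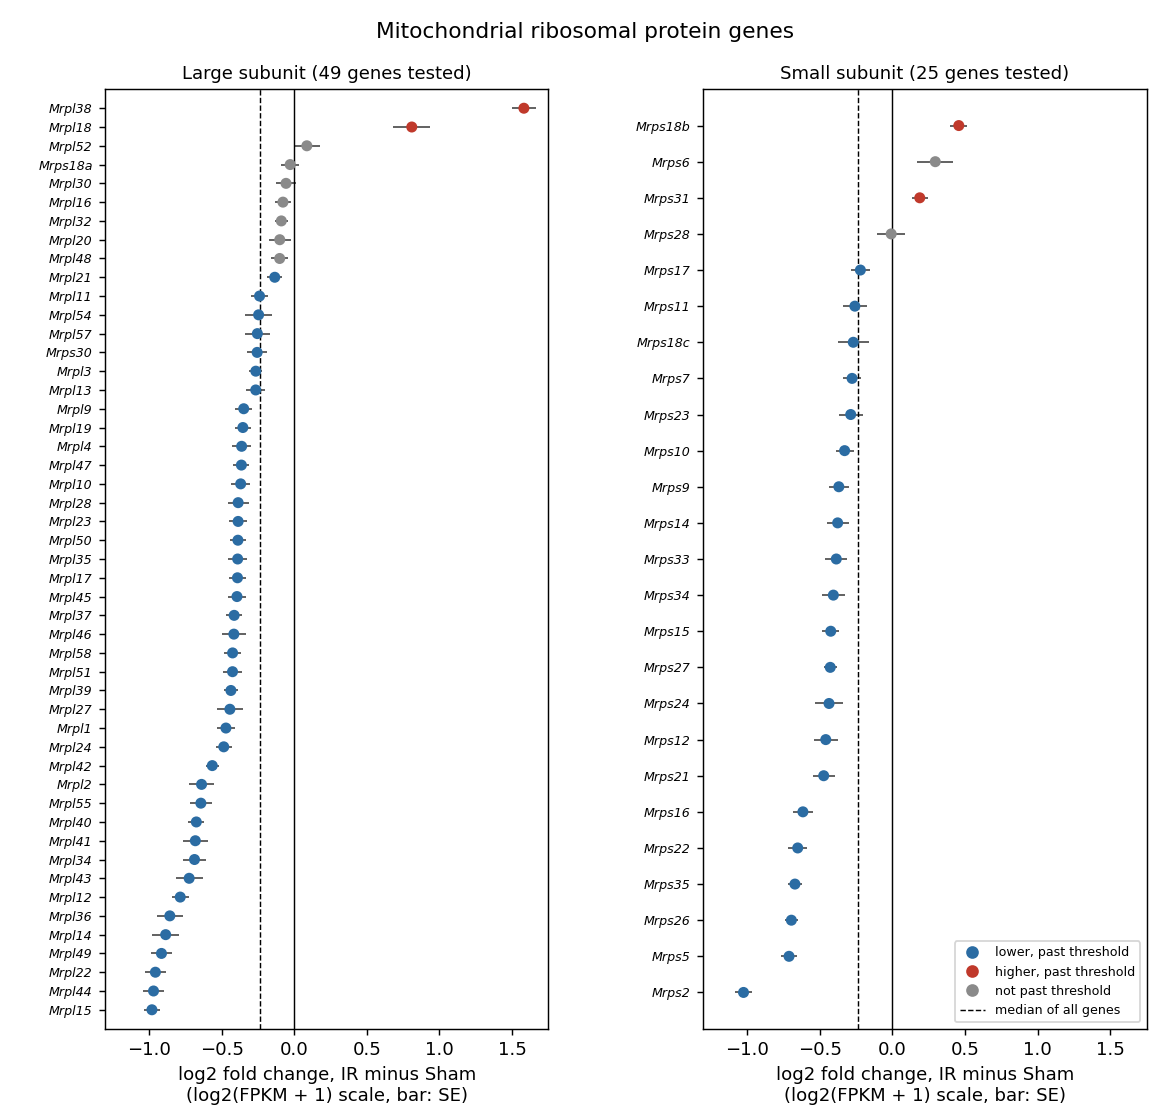
Log2 fold change (IR minus Sham, on the log2(FPKM + 1) scale) of the 49 tested large-subunit genes and the 25 tested small-subunit genes. Points are limma estimates and bars their standard errors over 3 libraries a group; the dashed line is the median of all genes, -0.23. Most points lie left of 0, and Mrpl38, at 1.58, lies farthest to the right; under median-of-ratios scaling 13 of the 77 tested members had the opposite sign.

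The scaling of the libraries sets part of this picture. FPKM are relative to each library's total, and scaling by median-of-ratios size factors, which places the typical gene at no change, moved the median of all genes from -0.23 to 0.0027. Under it the members' median remained below 0, at -0.14, with 32 lower, 13 higher and 32 not past the threshold, beside 38.1% lower and 38.2% higher among all genes. The 32 members lower under this scaling were also lower in FPKM, and the 4 members that rose in FPKM rose under both. Mrpl21 alone passed the threshold in opposite directions, with log2 fold changes of -0.13 and 0.13; it lost its call in 8 of 14 alternatives, among them each that left out 1 library except IR library 3. Another 8 members that had not passed were higher under this scaling, among them Mrpl52 (0.37), Mrps28 (0.27), Mrps18a (0.23) and Mrpl30 (0.22).

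The counts were similar in the 2 subunits. Of 49 large-subunit genes tested, 40 fell, 2 rose and 7 did not pass, with a median log2 fold change of -0.39. Of 25 small-subunit genes, 21 fell, 2 rose and 2 did not pass, also with a median of -0.39. Proteins conserved with bacteria (45 tested, 38 lower, 1 higher, median -0.38) and those specific to mitochondria (29 tested, 23 lower, 3 higher, median -0.41) lay close together. The difference between these classes was not tested. Across the 74 tested subunit genes the fold change had at most a weak relation to the Sham level (Pearson r = -0.056, Spearman rho = -0.23). The same held for the exon length (r = 0.049, rho = 0.16). These values are a description across genes that share the same libraries.

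Summed over genes, the large subunit stood at 624, 544 and 602 FPKM in Sham libraries 1 to 3 and at 468, 485 and 499 in IR libraries 1 to 3. The small subunit summed to 249, 213 and 239 FPKM in Sham and to 179, 175 and 182 in IR. In FPKM each IR sum lay below each Sham sum, 1.22-fold lower for the large subunit and 1.31-fold lower for the small subunit; under median-of-ratios scaling the log2 difference was 0.017 for the large sum and -0.086 for the small. The ratio of the large to the small sum, which does not depend on the scaling of a library, was 2.50, 2.55 and 2.51 in Sham and 2.62, 2.77 and 2.75 in IR. Every IR ratio lay above every Sham ratio. Without Mrpl38 and Mrpl18, the 2 large-subunit genes that rose, the large sum went from 547 to 378 FPKM, 1.44-fold lower in place of 1.22-fold. The ratio then turned, at 2.31, 2.36 and 2.34 in Sham and 2.10, 2.14 and 2.11 in IR, every IR ratio below every Sham ratio. These 2 genes were left out because they rose, and the reversal is a description with no test.

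**Figure D2:**
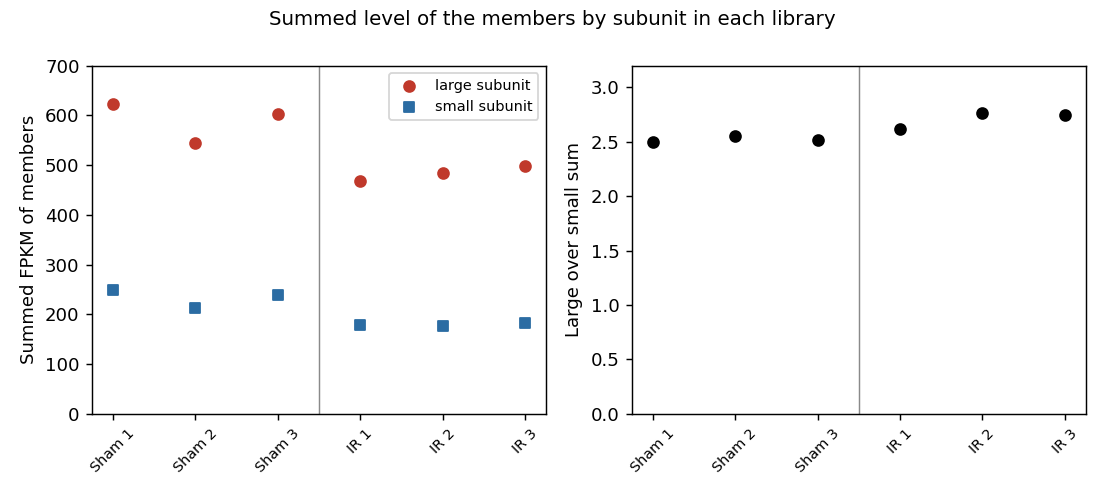
Left, summed FPKM of the 50 large-subunit and 26 small-subunit genes in each of the 6 libraries; right, the large sum over the small sum. In FPKM the IR sums lie below the Sham sums. Under median-of-ratios scaling the groups overlapped for both subunits, with log2 differences of 0.017 (large) and -0.086 (small). The IR ratios, 2.62 to 2.77, lie above the Sham ratios, 2.50 to 2.55, an order that turns without Mrpl38 and Mrpl18.

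Mrpl38 rose most. Its protein, mL38, sits at the central protuberance, the crown of the large subunit, and has the fold of phosphatidylethanolamine-binding proteins. The gene (ENSMUSG00000020775, chr11:116131817-116138868 in GENCODE M21, minus strand) stood at 23.48, 20.27 and 20.99 FPKM in Sham and at 59.36, 71.49 and 69.10 in IR. All IR values were far above all Sham values, 3.09-fold on the means. Its log2 fold change, 1.58 (SE 0.084, limma adjusted p = 1.5e-06), was the 354th highest of the 10316 genes. An exact two-sided permutation test of its FPKM gave p = 0.1, the smallest that 3 against 3 libraries allow. Among the tested members, Mrpl38 ranked 8 by mean FPKM in Sham and 1 in IR, and its share of the large-subunit sum went from 3.66% to 13.8%. No other gene of the annotation overlaps its exons or starts head to head with it within 1000 bases.

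Mrpl18 encodes uL18m, a neighbour of mL38 in the central protuberance. Its bacterial counterpart holds the 5S rRNA there, a place that a transfer RNA takes in mammalian mitochondria, and a cytosolic form of the protein has been described in heat-shocked cultured cells. Mrpl18 (chr17:12911349-12916345, minus strand) measured 23.4, 19.6 and 21.7 FPKM in Sham and 32.4, 37.8 and 46.6 in IR. The groups did not overlap, and the IR libraries were spread more widely than those of Sham. On the log2 scale the difference was 0.81 (SE 0.13, limma adjusted p = 0.00061), a 1.80-fold rise on the means.

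Mrps18b encodes mS40, 1 of 3 mammalian relatives of the bacterial protein bS18. It (chr17:35910379-35916389, minus strand) had 7.31, 6.40 and 6.78 FPKM in Sham and 9.65, 9.44 and 10.13 in IR, with no overlap. This was a log2 fold change of 0.46 (SE 0.058, limma adjusted p = 0.00017). In FPKM the other 2 relatives did not rise. Mrps18a, whose protein is in the large subunit, had a log2 fold change of -0.027 (limma adjusted p = 0.70). Under median-of-ratios scaling Mrps18a was higher (0.23, limma adjusted p = 0.0078). Mrps18c fell by 0.27 in FPKM with overlapping groups (limma adjusted p = 0.048). Mrps18c no longer passed in 9 of 13 alternative analyses, among them those without Sham library 1 or 3 or IR library 1 or 2.

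Mrps31, whose protein mS31 is specific to mitochondria, rose least of the 4. It (chr8:22411361-22429665, plus strand) gave 8.65, 8.37 and 7.77 FPKM in Sham and 10.04, 9.31 and 9.31 in IR. The groups stood apart by a small margin, with a log2 fold change of 0.19 (SE 0.056, limma adjusted p = 0.015), and without Sham library 3 it did not pass. Mrps6, for the small-subunit protein bS6m, had 2.60, 1.85 and 2.08 FPKM in Sham and 3.53, 2.38 and 2.81 in IR. Its groups overlapped, and it did not pass (log2 fold change 0.30, SE 0.13, limma adjusted p = 0.062), although it passed as higher in 5 of 13 alternatives, without Sham library 1, without IR library 2, with the replicate block, under median-of-ratios scaling (0.51, limma adjusted p = 0.0074) and after quantile normalization.

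**Figure D3:**
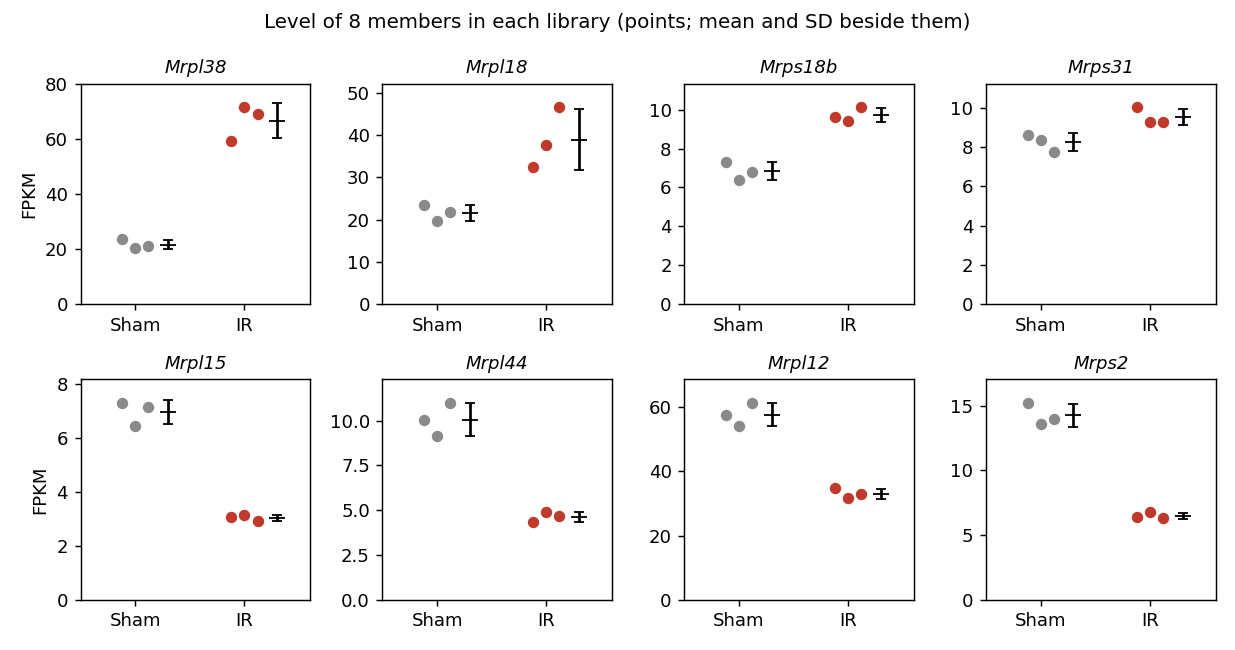
FPKM of 8 members in each library, with the mean and SD of 3 libraries beside the points; each axis starts at 0. In the upper row Mrpl38, Mrpl18, Mrps18b and Mrps31 are higher in every IR library than in any Sham library, and in the lower row Mrpl15, Mrpl44, Mrpl12 and Mrps2 are lower.

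On the log2(FPKM + 1) scale the largest fall was that of Mrps2, for the small-subunit protein uS2m, which sits where the head of the subunit meets its body. Mrps2 (chr2:28468066-28471178, plus strand) went from 15.2, 13.6 and 14.0 FPKM in Sham to 6.38, 6.77 and 6.32 in IR. The groups lay far apart, with means 2.20-fold lower in IR (log2 fold change -1.02, SE 0.056, limma adjusted p = 1.8e-06). Of all genes tested, 10.1% had a lower fold change.

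Mrpl15 encodes uL15m, a protein of the core of the large subunit. It had 7.30, 6.46 and 7.14 FPKM in Sham and 3.08, 3.13 and 2.91 in IR. No values overlapped, and the gene fell by 0.98 on the log2 scale (SE 0.057, limma adjusted p = 2.5e-06). On the mean FPKM its fall, 2.29-fold, was larger than that of Mrps2. Mrpl44, for a protein with the fold of ribonuclease III, had 10.03, 9.15 and 10.98 FPKM in Sham and 4.35, 4.90 and 4.68 in IR. It fell by 0.97 on the log2 scale (SE 0.072, limma adjusted p = 9.1e-06), again with no overlap. Mrpl49, for the mitochondria-specific mL49, had 12.7, 11.8 and 12.5 FPKM in Sham and 6.77, 5.44 and 6.12 in IR, with a log2 fold change of -0.91. Mrpl14, whose protein faces the small subunit across the interface, had 27.44, 20.99 and 25.19 FPKM in Sham and 12.8, 12.1 and 13.4 in IR. Its fold change was -0.88, and its Sham libraries varied more than its IR libraries. Mrpl36, for bL36m, a small protein of the large subunit, fell by 0.86 on the log2 scale.

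In the small subunit, Mrps5, for uS5m at the mRNA entry, followed Mrps2. Its values were 6.97, 6.82 and 7.12 FPKM in Sham and 3.88, 4.11 and 3.63 in IR, and it fell by 0.71 on the log2 scale (SE 0.053, limma adjusted p = 9.0e-06). Mrps26, Mrps35 and Mrps22, for proteins specific to mitochondria, fell by 0.70, 0.67 and 0.65. Mrps26 was nearly constant within each group, at 3.39, 3.43 and 3.40 FPKM in Sham and 1.68, 1.73 and 1.76 in IR. Since 1 is added to FPKM before the logarithm, the fold change of these low genes is understated: the means of Mrps35 (2.83 and 1.41 FPKM) differed 2.01-fold.

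By place in the ribosome, in groups formed after the values were seen, the members behaved as follows. At the stalk of the large subunit, which recruits the translation factors, the 3 genes listed here fell, where 80.5% of all tested members fell. The stalk gene Mrpl12, the most abundant member in Sham, measured 57.5, 54.3 and 61.4 FPKM there and 34.8, 31.6 and 32.8 in IR. Every IR value lay well below every Sham value (log2 fold change -0.78, SE 0.060, limma adjusted p = 1.0e-05). The others were Mrpl10 (-0.37) and Mrpl11 (-0.24). Under median-of-ratios scaling Mrpl10 stood at -0.086 and Mrpl11 at 0.019, and neither passed (limma adjusted p = 0.26 and 0.80). Mrpl12 was lower under that scaling too.

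Along and around the peptide exit tunnel the 7 genes listed here fell, with log2 fold changes from -0.96 to -0.36. Among all tested members 80.5% fell, and among all genes 53.8%, so that a fall of most listed members is the common case. Under median-of-ratios scaling 4 of the 7 were lower, and Mrpl45, Mrpl47 and Mrpl4 did not pass (adjusted p = 0.070, 0.058 and 0.21). Mrpl22, for uL22m in the tunnel wall, changed most, with 15.8, 14.2 and 16.0 FPKM in Sham and 6.695, 8.001 and 7.601 in IR. The IR values varied among themselves and all lay below Sham. Mrpl45, for a protein that anchors the ribosome to the inner membrane, fell by 0.39. Mrpl24 fell by 0.48, and Mrpl17, Mrpl23, Mrpl47 and Mrpl4 by 0.36 to 0.39.

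At the site where mRNA enters and is decoded, Mrps5, Mrps12 and Mrps24 fell, where 80.5% of all tested members and 53.8% of all genes fell. Mrps12, for the decoding protein uS12m, had 18.51, 15.84 and 20.01 FPKM in Sham and 12.75, 13.31 and 12.53 in IR (log2 fold change -0.46). Mrps24, for uS3m, had a fold change of -0.44. Both kept their direction under median-of-ratios scaling without passing the threshold there (adjusted p = 0.062 and 0.13).

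The central protuberance was mixed, with 3 of 6 genes lower and 2 higher. Among all tested members 80.5% were lower and 5.19% higher. Besides Mrpl38 and Mrpl18, which rose, Mrpl40 (9.382, 9.085 and 10.03 FPKM in Sham, 5.47, 5.88 and 5.39 in IR), Mrpl46 and Mrpl58 fell, by 0.67, 0.42 and 0.42 on the log2 scale. Mrpl58 encodes a peptidyl-tRNA hydrolase that also frees stalled ribosomes. Mrpl48 did not pass (-0.10, limma adjusted p = 0.15). Under median-of-ratios scaling 2 of the 6 genes were lower and 2 higher. The other 2, Mrpl46 (-0.15) and Mrpl48 (0.11), did not pass there (limma adjusted p = 0.085 and 0.090).

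Members with little or no measured difference were found in both subunits. In the large subunit Mrpl48, Mrpl20, Mrpl32, Mrpl16, Mrpl30, Mrps18a and Mrpl52 did not pass, with log2 fold changes from -0.10 to 0.09. Mrpl52 had 19.0, 14.7 and 17.8 FPKM in Sham and 17.7, 17.9 and 19.0 in IR. Its groups overlapped widely, as did those of Mrps28, at 15.8, 11.8 and 13.9 FPKM in Sham and 13.5, 14.1 and 13.4 in IR. Under median-of-ratios scaling 7 of these 8 genes, all but Mrpl48, were higher with adjusted p between 0.0025 and 0.039, so that their standing relative to other genes was above the middle. Near the threshold, Mrpl54 passed with overlapping groups (20.3, 15.4 and 18.6 FPKM against 15.3, 14.3 and 15.6; limma adjusted p = 0.045), and it did not pass without any 1 of Sham libraries 1 and 3 or IR libraries 1 to 3.

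Mrpl33 and Mrps25 lay under the filter and were not tested. Mrpl33 had 1.11, 0.963 and 0.962 FPKM in Sham and 0.8086, 0.8001 and 0.9648 in IR, with overlap. Mrps25 had 1.06, 0.971 and 1.02 FPKM in Sham and 0.805, 0.774 and 0.743 in IR, with no overlap. Of the pseudogene rows, Mrpl27-ps and Mrpl48-ps were tested and did not pass, and the other 3 had at most 1.05 FPKM in any library. Reads of a pseudogene and of its parent gene can be exchanged in counting, so that the values of both are uncertain. Mrps36, the Kgd4 gene, fell by 0.34.

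The Sham libraries differed in the same order for most members. Sham library 2 held the lowest Sham value of 70 of the 77 tested members and Sham library 1 the highest of 55, while in IR the lowest values were split over libraries 1, 2 and 3 as 28, 29 and 20. The median coefficient of variation of a member was 7.18% in Sham and 5.13% in IR. Without Sham library 2 the counts were again 62 lower and 4 higher.

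**Figure D4:**
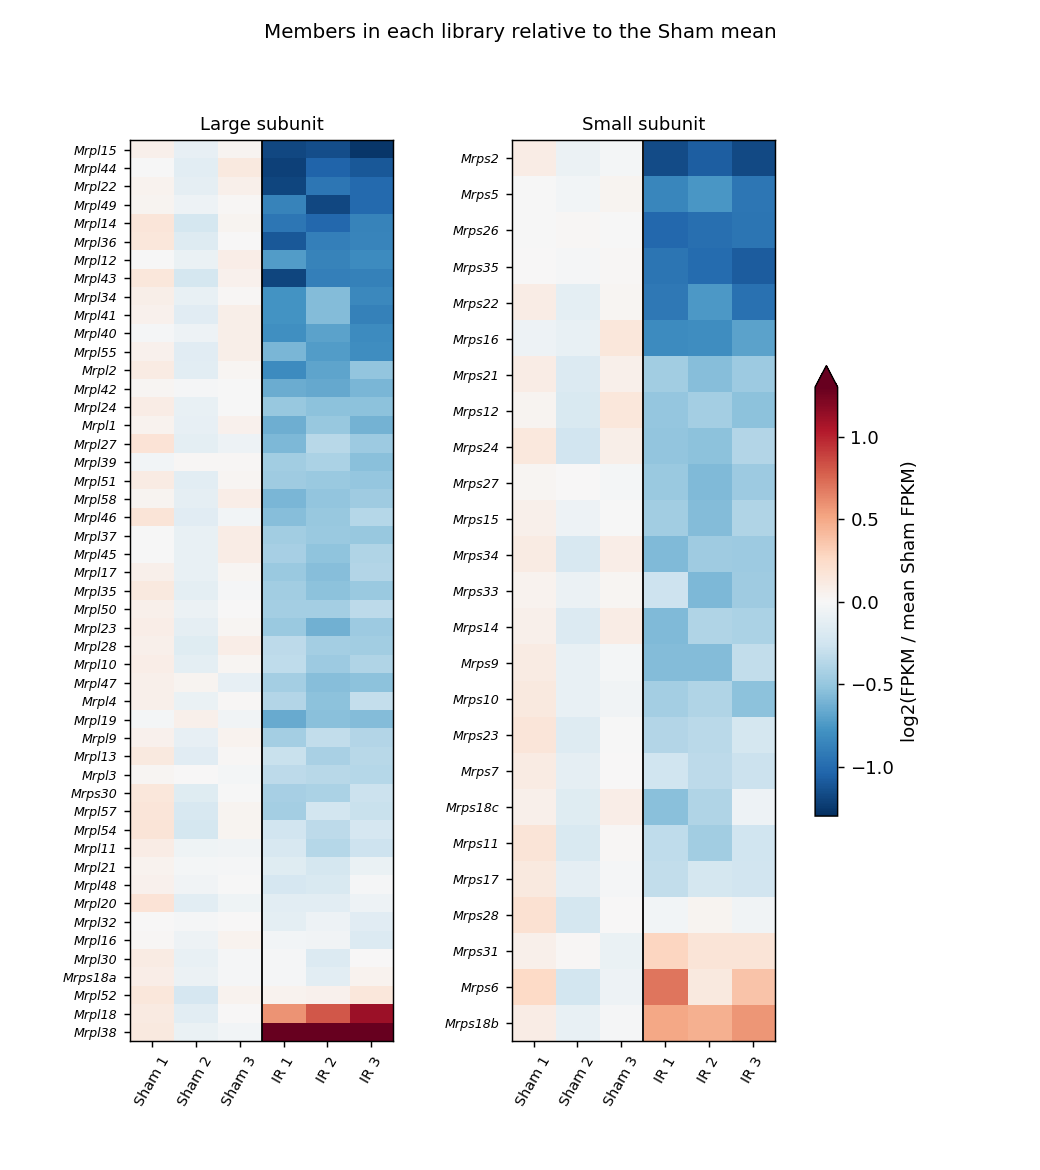
Level of the 74 tested subunit genes in each library as log2(FPKM over the mean Sham FPKM), in order of fold change within each subunit; the colour scale ends at 1.3, below the values of Mrpl38 in IR. The 3 IR columns are blue for most genes, near white for those that did not pass and red at the bottom, and the Sham 2 column is faintly blue for most genes.

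Genes that sit next to the members bear on their measurement. Exons of 32 members overlap those of another gene, 27 of them on the opposite strand and 8 over at least 20% of the member's exon length. The sources used here do not state how strand was handled, and reads in these overlaps cannot be told apart. Mrps34, 63.4% of whose exon length is also exon of Mapk8ip3, is the most affected of those that fell (-0.41, with Mapk8ip3 at -0.10). It also shares 763 bases, 37.0% of its exon length, on the same strand with Nme3, for which no value was found. Mrpl43 shares 507 bases with Twnk, the mitochondrial DNA helicase gene, and both fell, by 0.72 and 1.34. Mrpl18 shares 141 bases with Tcp1, a subunit of the cytosolic chaperonin, which went from 21.9 to 27.6 FPKM. Mrpl48 shares 708 bases with Rab6a, which went from 15.4 to 35.5 FPKM, and Mrps6 shares 159 bases on the same strand with Slc5a3.

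A head-to-head start, with a gene on the opposite strand beginning within 1000 bases, was found for 36 members, 33 of them with a protein-coding partner. Both genes were tested in 20 such cases. Mrpl46 and Mrps11, which start head to head with each other and both fell, are counted there from each side. Of the partners 11 fell, 5 rose and 4 did not pass, shares near those of all genes (53.8% lower, 24.3% higher). Both genes passed in the same direction in 12 of these cases, Mrpl46 and Mrps11 again counted from each side. They passed in opposite directions in 2, Mrpl44 with Wdfy1 and Mrpl50 with Zfp189. Mrps18b starts 45 bases from Ppp1r10, which encodes a regulator of protein phosphatase 1 and went from 5.78 to 17.5 FPKM (log2 fold change 1.45). Their exons do not overlap, but 638 bases of Mrps18b, 30.5% of its exon length, overlap the antisense gene Gm16279, which went from 0.530 to 0.440 FPKM. Mrpl49 starts 59 bases from Fau, the source of a cytosolic ribosomal protein, which did not pass (-0.043) while Mrpl49 fell by 0.91.

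Sequence was compared over RefSeq promoter windows of 250 bases before to 50 after the start. Of the 76 subunit genes 67 had an entry, with 73 windows, and motifs were sought on both strands. The ETS core CCGGAAG was found in 34.2% of these windows, against 8.86% of 32851 windows of all genes and 18.4% of 9451 windows of expressed protein-coding genes. The site of YY1, a zinc-finger factor (AAGATGGCG), was in 10.96%, 1.40% and 3.29% of the same sets. The NRF1 core GCATGCGC was in 10.96%, 2.71% and 5.31%, and the ZNF143 site in 6.85%, 1.98% and 4.16%. Among the members these shares are 8 windows each for YY1 and the NRF1 core and 5 for ZNF143. The heat shock element half-sites GAANNTTC were in 6.85%, 7.86% and 5.67%. The TATA box TATAAA was in 6.85%, 13.6% and 7.49%. Other letters sought were not more frequent than in expressed genes, or hardly so. The GC box GGGCGG was in 52.1%, 35.7% and 62.9%, and the E-box CACGTG in 9.59%, 7.15% and 10.3%. The CREB site TGACGTCA was in 2.74%, 1.79% and 3.02%, and CCAAT in 38.4%, 37.4% and 37.4%. The members' windows had a median GC content of 58.7%, against 60.7% for expressed genes.

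In the stretches printed above, Mrpl22 holds an ETS core 53 bases and an NRF1 core 33 bases before its start. Mrps22 holds a ZNF143 site and an ETS core at 49 and 11 bases. Mrpl34 holds 3 ZNF143 sites, at 203, 47 and 13 bases, the second sharing 1 base with an ETS core at 37 bases. Mrpl52 holds an ETS core at 47 bases, and Mrps2 holds none of these letters. Of members with a window, 19 of 54 that fell and 2 of 3 that rose had the ETS core; the difference was not tested, and Mrpl38 had no entry. For Mrpl18 and Mrps18b, which rose, the upstream match is shown in a stretch of 30 bases with the motif in capitals. All 250 upstream bases of Mrpl18 lie in exons that GENCODE M21 gives to Mrpl18 itself, whose start there differs from that of RefSeq, and those of Mrps18b lie in exons of Ppp1r10. In Mrps18b the ETS core and a further NRF1 core lie after the start, at 43 and 28 bases, and are not printed.
Mrpl18 (chr17:12916312-12916341, minus strand, ETS core 240 bases before the start): actgaaaacgCCGGAAGtagggggctgcgg
Mrps18b (chr17:35916645-35916674, minus strand, NRF1 core 223 bases before the start): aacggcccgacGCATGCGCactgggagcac
A match is a description of these letters and not evidence of binding.

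The wider machinery of mitochondrial gene expression was read from lists made by function. Their counts stand beside 53.8% lower and 24.3% higher among all genes in FPKM. Mitochondrial ribosomal proteins with other symbols fell in 4 of 4 cases tested, Ptcd3 (-0.58), Dap3 (-0.37), Aurkaip1 (-0.27) and Chchd1 (-0.24); under median-of-ratios scaling Ptcd3 and Dap3 passed as lower, and Aurkaip1 (0.012) and Chchd1 (0.040) changed sign. Gadd45gip1, under the filter, had 1.44, 1.22 and 1.30 FPKM in Sham and 0.608, 0.681 and 0.749 in IR.

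Genes for assembly of the mitochondrial ribosome and modification of its RNA had a lower median than the members. Of 25 tested, 20 fell, 2 rose and 3 did not pass, where 53.8% of all genes fell and 24.3% rose. The median was -0.62 (-0.43 under median-of-ratios scaling, with 19 lower and 4 higher). Mettl17, an assembly factor of the small subunit, had 4.28, 3.97 and 4.03 FPKM in Sham and 1.03, 1.03 and 0.974 in IR. Mrm2, a methyltransferase of the large rRNA, had 3.24, 3.15 and 3.27 FPKM in Sham and 0.374, 0.664 and 0.757 in IR. Both were clear of overlap, with log2 fold changes of -1.34 and -1.41. Ngrn, needed for the large rRNA in human cells, fell by 1.27. Ddx28, an RNA helicase of large-subunit assembly, rose instead, from 6.94, 6.19 and 6.58 FPKM to 12.2, 13.7 and 13.0 (0.88, limma adjusted p = 5.6e-06).

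Translation factors of mitochondria fell in 13 of 14 cases tested and rose in none, with a median of -0.66 (-0.45 under median-of-ratios scaling, with 12 lower and 1 higher); at an unadjusted p under 0.05 and by limma voom the number of rises was 0 too. The initiation factor genes Mtif2 and Mtif3 fell by 1.07 and 1.20, and Mtfmt, which formylates the initiator tRNA, by 0.95. Taco1, an activator of translation of the cytochrome oxidase subunit 1 mRNA, had 7.76, 8.32 and 8.70 FPKM in Sham and 2.65, 2.95 and 2.44 in IR. The groups lay far apart (-1.33, limma adjusted p = 1.2e-06). Genes of mitochondrial transcription and DNA maintenance fell in 9 of 9 cases, with a median of -0.60. Under median-of-ratios scaling 7 were lower and 2 did not pass, with a median of -0.36. Among all genes 53.8% fell in FPKM, and 38.1% were lower under that scaling. Tfam, which packages mitochondrial DNA and starts its transcription, had 11.02, 11.36 and 11.82 FPKM in Sham and 4.98, 4.99 and 5.43 in IR (-1.02).

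The RNA that the ribosome contains or translates changed less evenly. The rRNA of the small subunit, mt-Rnr1, had 712, 619 and 693 FPKM in Sham and 533, 453 and 411 in IR, and that of the large subunit, mt-Rnr2, had 654, 603 and 673 in Sham and 556, 548 and 488 in IR. Both fell in FPKM without overlap (-0.54 and -0.28); under median-of-ratios scaling neither passed, and mt-Rnr2 stood at 0.023. The libraries were made with an mRNA kit, and how far it captures rRNA was not tested. Of 15 mitochondrially encoded genes, 5 fell and 2, mt-Nd6 (0.18) and mt-Cytb (0.17), rose, where 53.8% of all genes fell and 24.3% rose. Log2 fold changes ran from -0.78 to 0.18, with a median of -0.079. Under median-of-ratios scaling the balance turned, with 8 higher, 0 lower and a median of 0.22. Among all genes 38.2% were higher and 38.1% lower under that scaling.

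The nuclear-encoded subunits of the respiratory chain, a list of 82 genes, gave counts near those of the members, a likeness that was not tested. Of 78 tested, 63 fell and none rose, where 53.8% of all genes fell and 24.3% rose. The median was -0.32 (-0.033 under median-of-ratios scaling, with 20 lower and 12 higher). At an unadjusted p under 0.05, and by limma voom on rebuilt reads, the number of rises was also 0. The list was drawn by gene symbol, with no check that each protein is a subunit. Ndufs1, of complex I, fell by 0.74, and Ndufa4l2, in the list by its symbol, fell most, by 1.04.

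Cytosolic ribosomal proteins, used as the reference, mostly did not pass the test in FPKM. Of 75 tested, 15 rose (20%, against 24.3% of all genes), 60 did not pass, none fell by limma (0 also at an unadjusted p under 0.05 and by limma voom) and all 75 lay above the median of all genes, with a median of 0.11; under median-of-ratios scaling 69 rose and the median was 0.41. Their summed FPKM was 7344, 6133 and 6947 in Sham and 7310, 7161 and 7537 in IR, with overlap between the groups. Rplp0, of the cytosolic stalk, had 215, 189 and 207 FPKM in Sham and 245, 241 and 255 in IR (0.28), where the mitochondrial stalk genes Mrpl10 and Mrpl12 fell. The difference between the 2 families as lists was not tested.

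**Figure D5:**
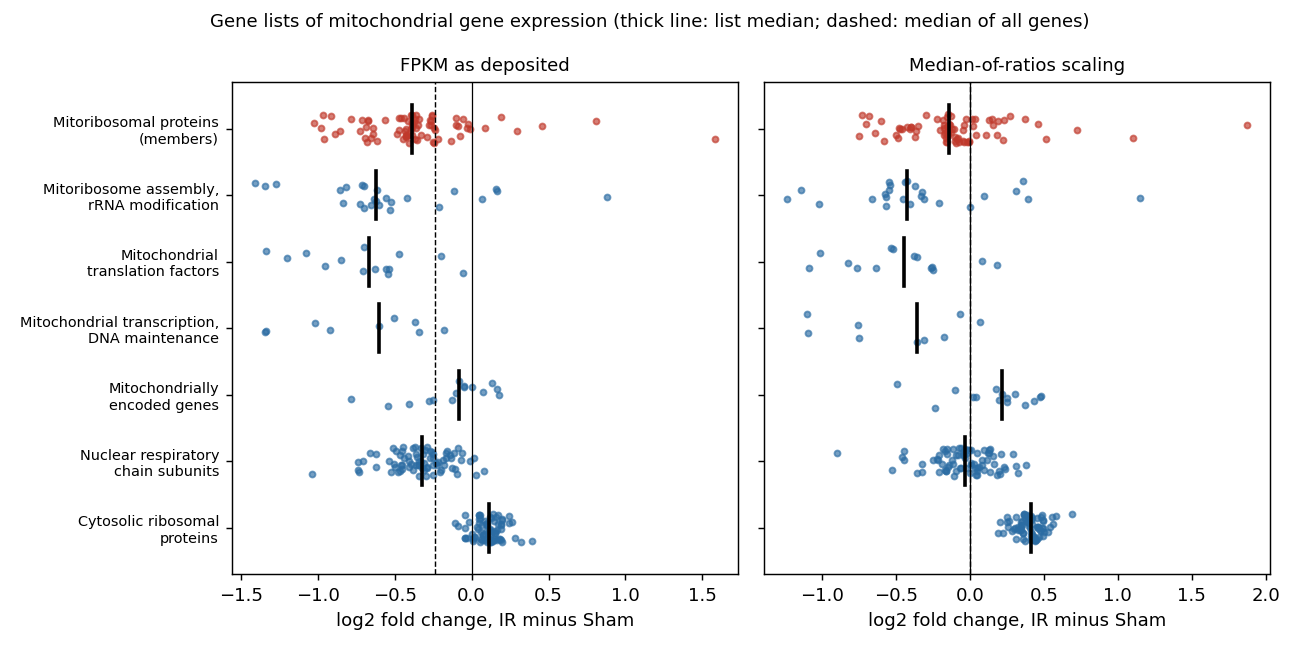
Log2 fold change (IR minus Sham) of each tested gene in 7 lists of mitochondrial and cytosolic gene expression, in FPKM as deposited (left) and after median-of-ratios scaling (right). Thick lines are list medians and the dashed line is the median of all genes, -0.23 on the left and 0.0027 on the right. The members (median -0.39 and -0.14) lie between the assembly and translation factors and the cytosolic ribosomal proteins in both panels.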

How the data were processed

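The 6 libraries of mouse liver RNA, 3 Sham and 3 IR, were assigned by title. Per the labels' protocols, total RNA was made into libraries with a SMARTER mRNA-Seq kit. The authors deposited 1 table of FPKM with 1 column per library; the genome build mm10 comes from the submitters' processing notes, and no source used here states the aligner, counter, annotation or strand handling. GENCODE M21 held all 82 members and gave coordinates and exon lengths. FPKM times exon length and a fitted library total gave whole reads within 0.05 for 98.3% of listed genes (26610 of 27072), and this gave the depths. Pairs of libraries of a group differed by more than sampling noise (median chi-square 1.92 to 3.91 per gene, against 0.455), so each was counted once.

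The 10316 genes whose FPKM averaged at least 1 entered a two-sided limma fit (version 3.58.1, R 4.3.3; trended eBayes) of log2(FPKM + 1), adjusted by Benjamini-Hochberg over all of them with a threshold of 0.05. The pseudocount understates the change of low genes. SE are limma's. Size factors for median-of-ratios scaling were computed over the tested genes. The fit was tested on simulated reads. The members, gene lists, roles and named genes were chosen with earlier results of these data known. Named were the 5 highest and 5 lowest fold changes and the 3 most abundant members of each subunit, members that moved against their subunit, lay under the filter or changed call or sign with the scaling, and up to 4 genes of each other list. Mrpl17, Mrpl23, Mrpl24, Mrpl34, Mrpl36, Mrpl40, Mrpl43, Mrpl58 and the neighbouring genes were named beyond that rule, after their values were seen. Promoter and upstream sequences are those of RefSeq in GRCm38.p6; Mrpl4, Mrpl13, Mrpl15, Mrpl19, Mrpl38, Mrpl54, Mrps28, Mrps34 and Mrps35 had no entry. The remaining steps ran in Python 3.11.15 with numpy 2.4.6, pandas 2.3.3, matplotlib 3.10.9 and scipy 1.17.1. The alternatives were a pseudocount of 0.1, no filter or a minimum of 5 FPKM, median-of-ratios scaling, quantile normalization, TPM, limma voom on rebuilt reads, a block for the replicate number, and dropping each library in turn.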

Additional observations from a re-analysis of the deposited data

How the results depend on the processing

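The number of members past the threshold, 66, stayed between 45 and 66 over all alternatives. With a minimum of 5 FPKM 41 were lower, and under median-of-ratios scaling 32 were lower and 13 higher, in place of 62 and 4. Leaving out each library in turn gave 60 to 66 members past the threshold, 57 to 62 lower and 3 to 5 higher. Over all genes, 8053 passed (2505 higher, 5548 lower); without a filter 12245 passed (8843 lower), with a minimum of 5 FPKM 3932 (1359 higher, 2573 lower), and under median-of-ratios scaling 3939 were higher; without a library 7590 to 7927 passed, 2335 to 2479 higher and 5248 to 5530 lower. The summed large subunit went from -0.29 (log2) to 0.017 under median-of-ratios scaling and the small from -0.39 to -0.086; without a library they ranged from -0.34 to -0.24 and from -0.45 to -0.34. Single members changed sign as follows, and beyond the scaling itself the cause was not tested. Under median-of-ratios scaling the fold changes were 0.040 (Mrpl54), 0.019 (Mrpl11), 0.13 (Mrpl21), 0.11 (Mrpl48), 0.18 (Mrpl20), 0.15 (Mrpl32), 0.19 (Mrpl16), 0.22 (Mrpl30), 0.23 (Mrps18a), 0.011 (Mrps7), 0.033 (Mrps17), 0.27 (Mrps28) and 0.16 (Mrpl48-ps). After quantile normalization they were 0.044 (Mrpl21), 0.12 (Mrpl48), 0.10 (Mrpl32), 0.069 (Mrpl16), 0.032 (Mrpl30), 0.15 (Mrps18a), 0.084 (Mrps28) and 0.24 (Mrpl48-ps), and with limma voom 0.00069 (Mrps28). With a library left out, the values ranged across 0 for Mrps18a (-0.061 to 0.015), Mrpl52 (-0.013 to 0.16), Mrps28 (-0.11 to 0.087) and Mrpl48-ps (-0.11 to 0.043). Of the members that rose, Mrpl38, Mrpl18 and Mrps18b kept their call in 14 of 14 alternatives and Mrps31 in 13. Libraries of the same number did not deviate together (correlations -0.039, 0.012 and -0.10), and those of unlike number lay between -0.055 and 0.099. Deviations within a group of 3 libraries sum to 0, so this check cannot exclude a pairing by number. With the replicate number as a block 65 members passed, 60 lower and 5 higher, and 7964 of all genes. With 3 libraries a group, differences under the spread between libraries were not detectable.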
